A study of Mus musculus with 30 samples.

Results

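Sperm DNA methylation was described at 10 genes of steroid hormone synthesis and gonadal hormone signalling: Star, Cyp11a1, Cyp17a1, Cyp19a1, Lhcgr, Fshr, Inha, Inhbb, Amh and Nr5a1. The genes are a list chosen by name, and their CpGs were taken by position: every CpG from 3 kb before to 3 kb after the RefSeq gene body on the mouse build GRCm38 that had 10 or more reads, both strands summed, in all 30 mice. This rule gave 199 CpGs of 416876 in the whole data set. Inhbb had 65 of them, Inha 42, Nr5a1 36, Amh 14, Cyp11a1 13, Lhcgr 12, Cyp19a1 11, Cyp17a1 3, Star 2 and Fshr 1. Of the 199 CpGs, 172 fell into 21 clusters, runs of at least 3 CpGs with gaps of no more than 100 bp, out of 44897 such clusters in all.

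Steroid hormones are made from cholesterol, which the STAR protein delivers to the inner mitochondrial membrane, where CYP11A1 cuts off its side chain. In the testis the Leydig cells then make testosterone through CYP17A1 under the control of luteinizing hormone, CYP19A1 turns androgens into oestrogens, and Sertoli cells respond to follicle-stimulating hormone and secrete inhibin B and anti-Müllerian hormone. NR5A1, also called steroidogenic factor 1, is a nuclear receptor that drives many of these genes in the gonads and the adrenal gland. Sperm do not make steroid hormones, so what was measured is the methylation that these genes carry in the male gamete. In mammalian sperm most of the genome is methylated, and CpG-rich gene starts are mostly free of methylation.

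The DNA came from mature sperm rinsed from both cauda epididymides, the storage end of the duct that leaves the testis, of male C57BL/6J mice. One group of 15 drank reverse-osmosis water with 0.9 ppm cadmium, prepared from cadmium chloride, at an average dose of 0.68 mg per kg of body weight. The other group of 15 drank the water alone and is called vehicle below. Per the labels all mice were 7 weeks old at the start, were sampled after 9 weeks of treatment, were housed singly and ate the same low-fat diet. Reduced representation bisulfite sequencing (RRBS) reads CpG-rich fragments, and bisulfite conversion lets methylated and unmethylated cytosines be counted. The series asked whether chronic cadmium intake changes sperm methylation.

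The libraries held 53591172 to 94090975 cytosine reads in total, and the median coverage of a member CpG was 67 reads (cadmium) and 77 reads (vehicle). The unmethylated control sequence read 0.349% ± 0.104 methylated in cadmium libraries and 0.397% ± 0.161 in vehicle libraries (SD, n = 15 each), so levels under about 1% lie close to what incomplete conversion gives. As a check of the cell type, the imprinted H19 region, which sperm carry methylated, read 86.4% ± 10.5 in cadmium and 87.7% ± 13.4 in vehicle mice over 2 CpGs. Maternally imprinted regions are nearly unmethylated in pure sperm. For 9 maternally imprinted genes the end with more measured CpGs within 1 kb was read. Whether each such end is the imprinted region was not tested. Single mice ranged from 0% to 3.03% at the Grb10 end and from 0% to 86% at the Mest end. The 9 ends averaged 15.8% ± 6.17 in cadmium mice (6.90% to 28.7%) and 13.6% ± 8.70 in vehicle mice (5.68% to 35.5%). The difference of 2.15 points did not pass a two-sided permutation test (p = 0.444), and the level was over 25% in 3 mice: cadmium 13, vehicle 4 and vehicle 13. Results are therefore also given beside this imprinted-end level.

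No member passed the test of cadmium against vehicle at any scale. Per CpG, in a logistic model with Benjamini-Hochberg adjustment over all CpGs, 0 of the 199 passed an adjusted p of 0.05, where 0.00168% of all CpGs passed, and the smallest adjusted p among them was 0.227. At an unadjusted p under 0.05 there were 23 member CpGs (11.6%), 10 higher and 13 lower in cadmium mice, beside 10.3% of all CpGs. Of the 21 clusters, 0 passed in the same model, where 0% of all clusters passed. At an unadjusted p under 0.05 there were 3 member clusters (14.3%), in Cyp11a1, Inha and Nr5a1, beside 6.01% of all clusters. Of the 10 gene windows, tested with limma on the mean over each window's CpGs, 0 passed, where 0% of 24112 windows passed, and 0 had an unadjusted p under 0.05, beside 3.16% of all windows. The smallest unadjusted p of a member window was 0.115. Without the 3 mice over 25% at the imprinted ends, the differences of those 3 clusters were 1.60, -0.46 and -2.97 points, with adjusted p of 0.43, 0.434 and 0.526 (logistic model). Limma on single CpGs gave 0 calls with 7237 CpGs at an unadjusted p under 0.05, and on clusters 0 calls with 1541.

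The members covered the whole range of methylation, in 3 kinds of place. Of their 199 CpGs, 154 were under 20% methylated over all mice, 24 lay between 20% and 80%, and 21 were over 80%. The same classes held 65.1%, 12.9% and 22% of all CpGs, against 77.4%, 12.1% and 10.6% of the members' CpGs. CpGs of middle levels varied most: the median SD between mice was 21.5 points for the 24, against 2.75 for the 154 and 9.62 for the 21. In 19 CpGs no mouse had a methylated read.

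The promoter letters show where reads fell at 3 gene starts. RefSeq promoters of GRCm38.p6 run from 250 bases before a transcript start to 50 after it, and 6 of the 10 genes matched: Inha, Inhbb, Cyp19a1, Cyp11a1, Lhcgr and Fshr. Star, Cyp17a1, Amh and Nr5a1 had no entry. Inhbb, Cyp11a1 and Lhcgr were the 3 genes with CpGs measured in all mice inside these windows, and those CpGs are in capitals in the sequences below, each written 5′ to 3′ on its gene's strand. The Inhbb window is chr1:119422199-119422498 (minus strand), that of Cyp11a1 chr9:57997774-57998073 (plus strand) and that of Lhcgr chr17:88791965-88792264 (minus strand).
Inhbb: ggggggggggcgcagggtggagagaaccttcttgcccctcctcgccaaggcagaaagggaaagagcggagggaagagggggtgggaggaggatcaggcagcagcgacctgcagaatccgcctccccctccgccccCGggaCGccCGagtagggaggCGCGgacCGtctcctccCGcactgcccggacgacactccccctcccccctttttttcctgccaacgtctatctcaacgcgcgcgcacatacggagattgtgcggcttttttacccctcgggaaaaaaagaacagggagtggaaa
Cyp11a1: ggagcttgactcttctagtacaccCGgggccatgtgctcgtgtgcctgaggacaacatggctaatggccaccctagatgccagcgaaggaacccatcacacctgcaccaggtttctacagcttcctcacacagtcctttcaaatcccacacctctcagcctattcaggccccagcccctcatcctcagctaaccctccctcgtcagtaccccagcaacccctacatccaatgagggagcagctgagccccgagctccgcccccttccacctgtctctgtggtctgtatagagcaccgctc
Lhcgr: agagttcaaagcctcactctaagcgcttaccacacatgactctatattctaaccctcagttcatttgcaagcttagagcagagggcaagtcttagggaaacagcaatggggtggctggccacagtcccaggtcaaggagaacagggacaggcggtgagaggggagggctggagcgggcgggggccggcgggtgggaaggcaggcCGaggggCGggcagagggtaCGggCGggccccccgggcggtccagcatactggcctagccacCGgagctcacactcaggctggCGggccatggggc
The Inhbb window holds 23 CG pairs, of which 7 were measured in every mouse, and the Lhcgr window holds 14, of which 6 were. The Cyp11a1 window holds 7 CG pairs, the median over all 32851 promoters, and 1 was measured. The letters GGGCGG, the core of the GC box that Sp1 binds, were searched on either strand. They were in these 3 of the 9 member windows and in 35.7% of all promoters. The 4 matches in the Lhcgr window contained 2 of its measured CpGs, and the matches in the Inhbb and Cyp11a1 windows contained none. The letters AAGGTCA, an element of the kind NR5A1 binds, were in 0 of the 9 member windows and in 4.72% of all promoters. TGACGTCA, the cyclic AMP response element, was in 0 of the 9 and in 1.79% of all. None of the 3 motifs was found overlapping another, since only GGGCGG was found.

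Star, which delivers cholesterol to the mitochondrion, was almost fully methylated where it was read. Its 2 CpGs lie inside the gene body (chr8:25808474-25815982), in the last 1 kb before its higher-coordinate end. Cadmium mice had a window mean of 99.4% ± 1.92, with a lowest value of 92.6% and a median of 100%. Vehicle mice had 96.9% ± 5.68, with a lowest value of 80% and a median of 100%. The groups overlapped, with 13 of 15 cadmium and 9 of 15 vehicle mice at 100%. The difference was 2.48 points (95% interval -0.65 to 5.60, limma adjusted p = 1), and 0.613 points without the 3 mice over 25% at the imprinted ends. At the CpG with the smaller p, chr8:25815081, the groups read 98.8% ± 3.85 and 96.5% ± 6.5 (adjusted p = 0.8, logistic model).

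Cyp11a1, which makes the first committed step of steroid synthesis, had an unmethylated start and a methylated body (chr9:57998024-58027031). A CpG in the last 1 kb before the start read 34.1% ± 24 in cadmium and 25.4% ± 19.9 in vehicle mice. The promoter CpG in capitals above read 2.65% ± 6.92 and 0.654% ± 2.53. Methylation was thus already low across the start itself. The cluster of 3 CpGs centred 147 bp after the start (chr9:57998144-57998199) read 1.85% ± 1.85 in cadmium mice (lowest 0%, median 2%, highest 4.83%) and 0.331% ± 0.734 in vehicle mice (lowest 0%, median 0%, highest 2.40%). Of the vehicle mice, 12 had no methylated read there, and of the cadmium mice 6 had none, so the groups overlapped at 0%. The difference of 1.52 points had an unadjusted p of 0.00792 and an adjusted p of 0.551 in the logistic model. The vehicle mean lay at the level of the unmethylated control and the cadmium mean above it. Within this cluster, the CpG at chr9:57998180 read 2.29% ± 3.38 in cadmium and 0.134% ± 0.520 in vehicle mice (adjusted p = 0.288, logistic model).

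Farther into Cyp11a1 methylation was high and differed widely between mice. The cluster of 3 CpGs at chr9:58011202-58011244 read 71.2% ± 11.4 in cadmium and 73.9% ± 14.4 in vehicle mice. The cluster of 4 CpGs at chr9:58026125-58026227, in the last 1 kb of the gene, read 64.4% ± 20.7 in cadmium mice (lowest 23.1%, median 64.7%, highest 92.5%) and 75.3% ± 20.2 in vehicle mice (lowest 34.0%, median 78.1%, highest 95.9%). The groups overlapped over most of that range. The difference of -10.9 points was smaller than the SD within either group (adjusted p = 0.991, logistic model). Over the whole window Cyp11a1 averaged 39.0% ± 9.02 in cadmium and 41.2% ± 8.50 in vehicle mice, a difference of -2.20 points (95% interval -8.64 to 4.24, limma adjusted p = 1).

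Cyp17a1, the enzyme that turns progestins into androgen precursors, was read at 3 CpGs within 24 bp of its body (chr19:46668716-46668739), which also lie in the long noncoding RNA gene Gm41857. The cluster read 81.3% ± 12.1 in cadmium mice (lowest 57.8%, median 84.4%, highest 100%) and 77.4% ± 24.8 in vehicle mice (lowest 26.8%, median 81.8%, highest 100%). Both groups included mice at 100%, and the 3 values under 50% came from vehicle mice. Of the 3, the CpG at chr19:46668716 had the smallest p and read 79% ± 20.8 and 71.4% ± 32 (adjusted p = 1, logistic model). The window means differed by 4.43 points (95% interval -10.4 to 19.3, limma adjusted p = 1).

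Cyp19a1, the aromatase gene, was read at 11 CpGs deep in its body (chr9:54165937-54268164, minus strand), and none of its 3 RefSeq promoter windows had a CpG measured in all mice. The 5 CpGs of the cluster at chr9:54213010-54213183 were methylated at 97.7% ± 3.03 in cadmium and 95.9% ± 3.55 in vehicle mice. They include the Cyp19a1 CpG with the smallest p, chr9:54213080, at 98.5% ± 4.78 and 96% ± 6.61 (adjusted p = 0.676, logistic model). About 11 kb downstream in the gene, the 4 CpGs at chr9:54201984-54202018 read 34.3% ± 17.9 in cadmium mice (lowest 7.68%, median 34.4%, highest 71.3%) and 29.5% ± 20.2 in vehicle mice (lowest 1.29%, median 25%, highest 69.9%). The spread between mice thus sat in 1 of the 2 clusters. The differences of 1.84 and 4.80 points were within the spread, each with an adjusted p of 0.998 (logistic model). The whole window averaged 64.1% ± 8.62 in cadmium and 62.6% ± 11.2 in vehicle mice, a difference of 1.53 points (95% interval -5.83 to 8.89).

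**Figure D1:**
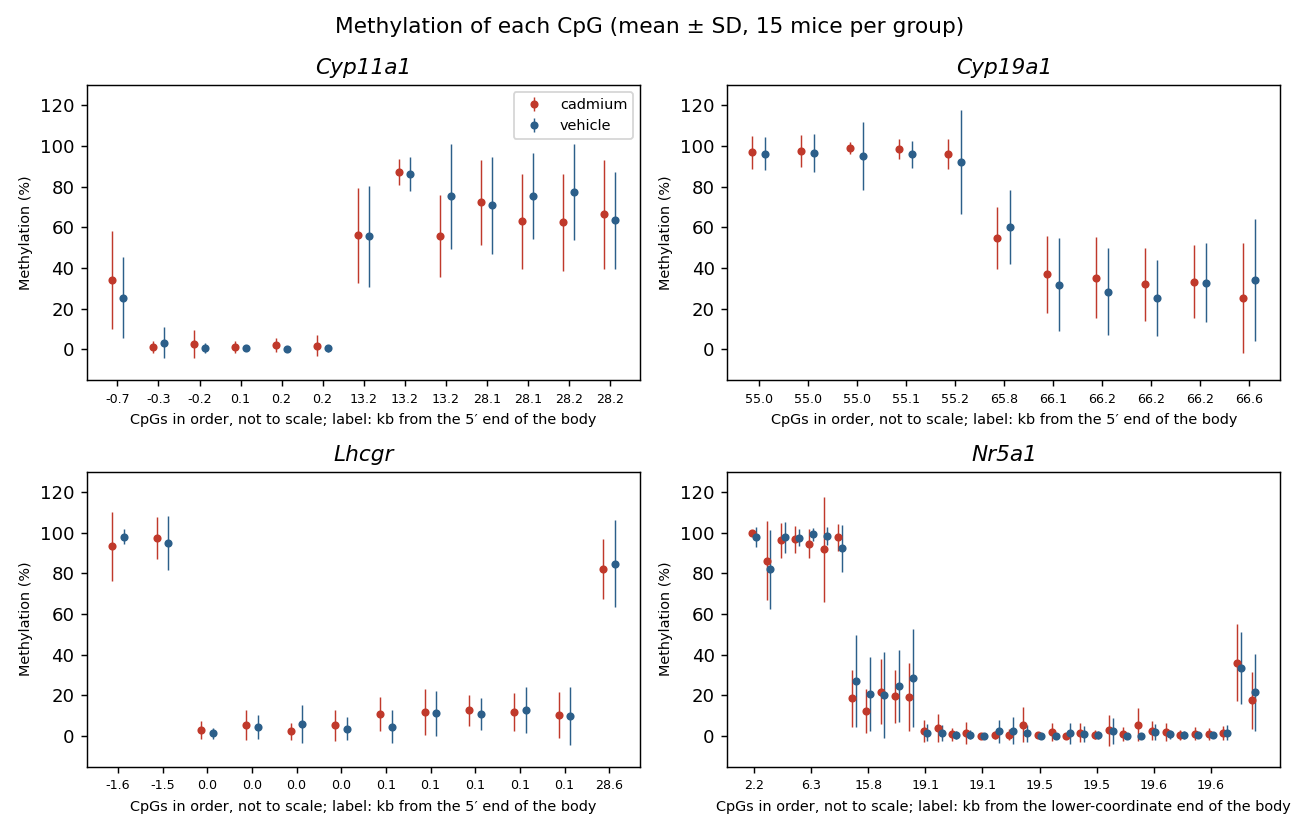
Methylation (%, vertical axis) of each CpG in order along Cyp11a1, Cyp19a1, Lhcgr and Nr5a1, with distance labels in kb and the CpGs evenly spaced; points are means and bars SDs over 15 mice, red for cadmium and blue for vehicle. The 9 Lhcgr CpGs at its start lie low between high flanks, the 2 clusters near the higher-coordinate end of Nr5a1 lie low beside CpGs of intermediate level, and the red and blue bars overlap at each CpG shown.

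Lhcgr, the receptor for luteinizing hormone on Leydig cells, had a start with low but measurable methylation, and highly methylated CpGs farther away. The 9 CpGs at chr17:88791954-88792060 surround the transcript start and include the 6 in capitals above. This cluster read 9.41% ± 5.15 in cadmium mice (lowest 3.44%, median 8.04%, highest 19.4%) and 7.79% ± 5.52 in vehicle mice (lowest 0.404%, median 6.59%, highest 17.9%). The difference of 1.62 points was under the SD of either group (adjusted p = 0.993, logistic model), and the ranges overlapped almost fully. Along the start the level was not even: the 4 CpGs from chr17:88791954 to chr17:88791977, on the transcribed side, averaged 9.88% to 12.9%, and those before the start 1.37% to 6.04%. The CpG at chr17:88791997 read 11% ± 8.4 in the cadmium group and 4.64% ± 8.26 in the vehicle group, where 4 and 9 mice had no methylated read (adjusted p = 0.413, logistic model). The 2 CpGs about 1.5 kb upstream of the body read 93.2% to 98.1% in either group. The window mean was 28.8% ± 3.31 in cadmium and 28.6% ± 3.13 in vehicle mice, a difference of 0.29 points (95% interval -2.08 to 2.67, limma).

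Fshr, the receptor for follicle-stimulating hormone on Sertoli cells, had 1 CpG measured in all mice, at chr17:89092028 in the middle of a long gene (chr17:88984952-89200675). Cadmium mice ranged from 0% through a median of 26% to 72.7%, with a mean of 29.5% ± 27.8. Vehicle mice ranged from 0% through a median of 16.3% to 80.3%, with a mean of 17.3% ± 21.5. At 0% were 5 cadmium and 6 vehicle mice, so the groups overlapped over the whole range. The difference of 12.2 points had a 95% interval of -6.07 to 30.5 (limma adjusted p = 1), and the logistic model on its reads gave an adjusted p of 0.947. The size depends on the CpGs kept: the window difference was 1.66 points over the 6 CpGs with 5 reads in all mice, and 6.12 over the 17 that had 10 reads in 10 or more mice per group. The median coverage of this CpG was 48.5 reads, and 1 CpG does not describe the gene.

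Inha, the alpha subunit shared by inhibin A and inhibin B, was read mostly upstream of its body, at CpGs that were nearly unmethylated. Of its 42 CpGs, 38 lie upstream of the gene and inside the body of the neighbouring gene Obsl1, in 3 clusters between 0.8 and 1.4 kb before the lower-coordinate end of Inha. The largest, with 27 CpGs at chr1:75505862-75506036, read 0.260% ± 0.322 in cadmium mice (lowest 0%, median 0.113%, highest 1.02%) and 0.719% ± 0.404 in vehicle mice (lowest 0.120%, median 0.705%, highest 1.49%). The groups overlapped, with 5 cadmium mice and no vehicle mouse at 0%. The difference of -0.458 points had an unadjusted p of 0.00373 and an adjusted p of 0.445 in the logistic model. Both means lay under 1%, close to what incomplete conversion gives. The cadmium mean was below the 0.349% of the unmethylated control in cadmium libraries. The vehicle mean was above the 0.397% in vehicle libraries and above the highest of them (0.666%). The part of incomplete conversion in the difference was not tested. With CpGs read in at least 10 mice of each group the cluster's difference was -0.0897 points. In this cluster the CpG with the smallest p, chr1:75505954, had no methylated read in any cadmium mouse and methylated reads in 4 vehicle mice (0% against 4.02% ± 7.9, adjusted p = 0.382, logistic model). The other 2 clusters read 0.797% ± 1.64 and 0.658% ± 0.731 in cadmium, and 1.89% ± 3.05 and 0.583% ± 0.802 in vehicle mice. The 3 CpGs in the body averaged 3.5% to 12.8% by group, with SDs of 8.77 to 27.2 points. The window mean therefore mixes CpGs of Inha and Obsl1. It was 1.29% ± 0.893 in cadmium and 1.39% ± 0.886 in vehicle mice (difference -0.10 points, 95% interval -0.78 to 0.58, limma).

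Inhbb, the beta B subunit that makes inhibin B with the alpha subunit and activin B with itself, had the most CpGs, most of them almost unmethylated. Its 5 clusters, from 405 bp before the transcript start to 1940 bp after it, averaged between 0.127% and 0.763% in every group. The largest, with 44 CpGs at chr1:119420693-119421185, read 0.702% ± 0.566 in cadmium and 0.713% ± 0.539 in vehicle mice (adjusted p = 0.999, logistic model). The 7 CpGs in capitals in the Inhbb sequence read 0.475% ± 0.829 and 0.516% ± 0.956, and 11 cadmium and 9 vehicle mice had no methylated read in them. The cluster with the smallest p, 3 CpGs at chr1:119422646-119422661, read 0.555% ± 1.02 and 0.127% ± 0.391 (unadjusted p = 0.0721, adjusted p = 0.873, logistic model). The CpG with the smallest p, at chr1:119420803, had methylated reads in 3 cadmium mice and no vehicle mouse (1.76% ± 4.08 against 0%, adjusted p = 0.266, logistic model). About 1 kb further into the gene, the CpG at chr1:119419343 read 9.80% ± 15.4 in cadmium and 13.1% ± 21.0 in vehicle mice (medians 0% and 2.35%). The next CpG, at chr1:119419301, read 49.4% ± 37.1 in cadmium and 57.7% ± 28.4 in vehicle mice. Over the window Inhbb averaged 1.52% ± 0.869 in cadmium and 1.68% ± 0.645 in vehicle mice, a difference of -0.16 points (95% interval -0.75 to 0.43, limma).

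Amh, the anti-Müllerian hormone of Sertoli cells, lay between differently methylated CpGs of its neighbours. Its 7 CpGs inside the body (chr10:80807179-80807229) read 1.07% ± 2.20 in cadmium and 1.06% ± 1.70 in vehicle mice, with 10 and 9 mice at 0%. The 4 CpGs about 2.4 to 2.9 kb before its lower-coordinate end, in the body of Sf3a2, averaged 54.8% to 97.8% by group. The cluster of 3 CpGs beyond its other end, in Jsrp1 (chr10:80808946-80808996), read 3.74% ± 3.75 in cadmium and 4.37% ± 5.22 in vehicle mice. At the CpG with the smallest p, chr10:80807228, 2 cadmium mice and no vehicle mouse had methylated reads (1.69% ± 4.47 against 0%, adjusted p = 0.422, logistic model). The window mean of 24.3% ± 2.25 in cadmium and 25.6% ± 2.81 in vehicle mice therefore mixes 3 genes, and its difference of -1.38 points had a 95% interval of -3.26 to 0.50 (limma adjusted p = 1).

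Nr5a1, the nuclear receptor that activates steroidogenic genes, stepped from full methylation at its lower-coordinate side to almost none near its higher-coordinate end, all within the body (chr2:38692656-38714542). The 3 CpGs at chr2:38698913-38699005 read 95.7% ± 3.45 in cadmium mice (lowest 89.4%, median 96%, highest 100%) and 98.3% ± 1.99 in vehicle mice (lowest 94.3%, median 99.6%, highest 100%). The groups overlapped above 94%, and the lowest 5 values came from cadmium mice. The difference of -2.59 points had an unadjusted p of 0.0199 and an adjusted p of 0.694 (logistic model). The 5 CpGs at chr2:38708394-38708477 were intermediate, at 19.6% ± 8.93 in cadmium and 23.8% ± 17.8 in vehicle mice. The clusters of 5 CpGs at chr2:38711721-38711753 and of 17 CpGs at chr2:38712166-38712243 read 1.81% ± 2.50 and 1.84% ± 1.30 in cadmium mice, and 0.889% ± 1.19 and 1.11% ± 1.21 in vehicle mice. In the cluster of 17 lies the member CpG with the smallest p, chr2:38712208, at 5.52% ± 8.09 in the cadmium group and 0.0883% ± 0.342 in the vehicle group. There 6 cadmium mice and 1 vehicle mouse had methylated reads, and the adjusted p was 0.227 (logistic model). The last 2 CpGs, within 250 bp of the higher-coordinate end, read 17.5% to 36.1% by group. The window mean was 23.5% ± 2.20 in cadmium and 24% ± 3.13 in vehicle mice, a difference of -0.47 points (95% interval -2.46 to 1.53, limma).

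**Figure D2:**
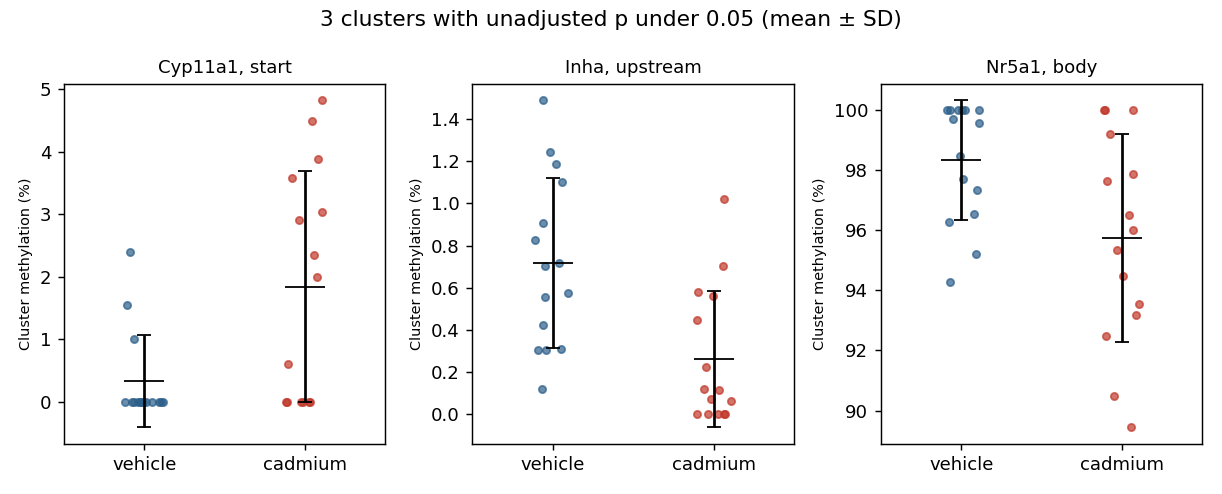
Methylation (%, vertical axis, a separate scale in each panel) of the 3 member clusters with an unadjusted p under 0.05, in Cyp11a1 (3 CpGs after the start), Inha (27 CpGs upstream) and Nr5a1 (3 CpGs in the body); each point is a mouse and the lines are mean ± SD of 15. The groups overlap in each panel, 12 vehicle mice lie at 0% at Cyp11a1, and none of the 3 passed after adjustment over 44897 clusters.

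Ordered by the window mean over all 30 mice, the genes ran from Inha (1.34% ± 0.875), Inhbb (1.60% ± 0.756), Fshr (23.4% ± 25.2), Nr5a1 (23.8% ± 2.67), Amh (24.9% ± 2.60) and Lhcgr (28.7% ± 3.17) to Cyp11a1 (40.1% ± 8.68), Cyp19a1 (63.3% ± 9.87), Cyp17a1 (78.9% ± 20) and Star (98.2% ± 4.35). Neighbours in this order differed by more than the larger of their SDs at 3 steps, from Amh to Lhcgr, from Lhcgr to Cyp11a1 and from Cyp11a1 to Cyp19a1. At the other 6 steps the difference was within that spread. The order depends on which CpGs RRBS reached. Lhcgr was read mostly around its start, and Inhbb mostly in a body cluster of 44 CpGs centred 1310 bp after its start. Star, Cyp17a1 and Cyp19a1 were read in their bodies. The member windows were higher in cadmium mice for 5 genes and lower for 5, with a median difference of 0.0972 points, beside 0.0202 over all windows.

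**Figure D3:**
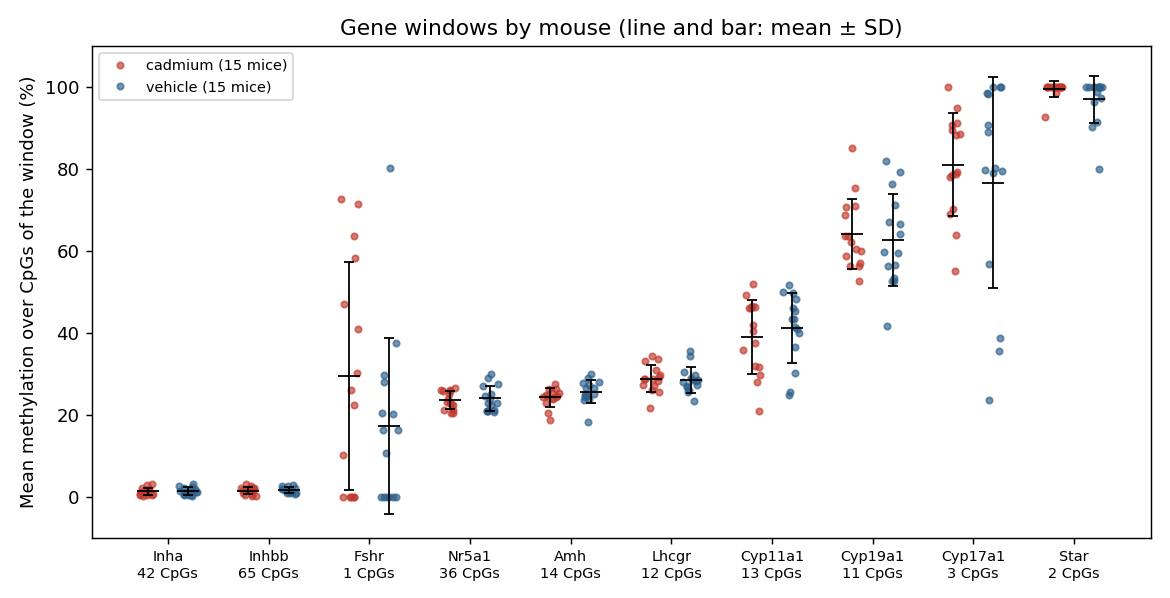
Mean methylation over the CpGs of each gene window (%, vertical axis) for the 10 genes, ordered by level with the number of CpGs under each name; each point is a mouse, red for cadmium and blue for vehicle, and lines are mean ± SD of 15. Fshr, read at 1 CpG, spreads from 0% to 80.3%, Inha and Inhbb stay under 4%, and the groups overlap at all 10 genes.

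**Figure D4:**
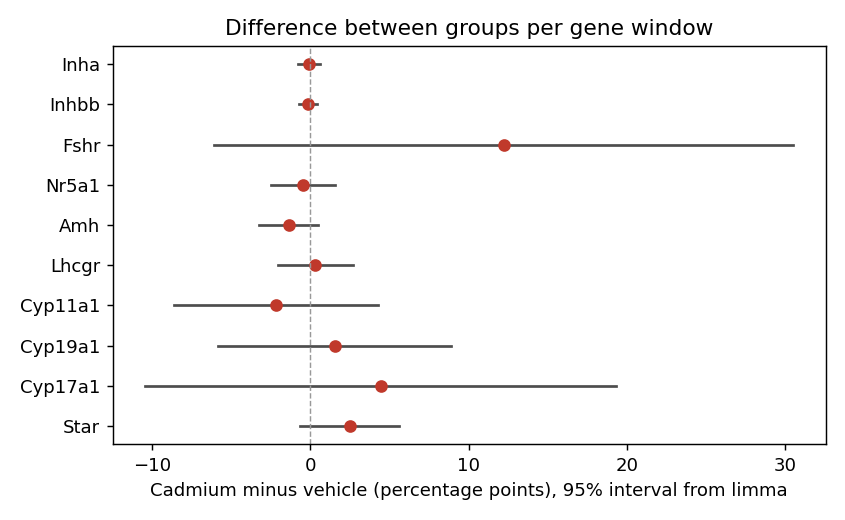
Difference of the window means, cadmium minus vehicle, in percentage points (horizontal axis) for the 10 genes, with 95% intervals from limma. Each interval includes 0, and the widths run from about 1 point at Inha and Inhbb to over 30 points at Fshr.

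Differences between mice of the same group followed the imprinted-end level at several members. Over 30 mice the window mean was related to that level by r at 7 of the 10 genes, upwards at 4 and downwards at 3 (adjusted permutation p under 0.05 over 10 relations). Cyp11a1 went down with it: r was -0.771 and rho -0.741 (p = 1e-05 for each, the smallest the permutations can give, adjusted p = 0.0001). Without vehicle 13 and vehicle 4, the 2 mice farthest from the median, r was -0.744, and it was -0.791 within cadmium and -0.776 within vehicle mice. Nr5a1 went up with it, with r of 0.690 and rho of 0.735 (adjusted p = 0.000233 and 0.0002). Its r was 0.6 without the 2 mice, 0.706 in cadmium and 0.717 in vehicle mice. Cyp19a1 went up likewise, with r of 0.655 and rho of 0.613 (adjusted p = 0.000233 and 0.0018), 0.567 without the 2 mice, 0.716 in cadmium and 0.618 in vehicle mice. The single Fshr CpG had r of 0.585 and rho of 0.526 (adjusted p = 0.00186 and 0.0081), and 0.494 without the 2 mice. Its r was 0.393 within cadmium and 0.786 within vehicle mice.

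The other 3 of the 7 genes were Star, Inha and Inhbb. Star had r of -0.673 and rho of -0.422 (adjusted p = 0.0007 and 0.0352), but r was -0.310 without vehicle 13 and vehicle 4, -0.113 within cadmium and -0.952 within vehicle mice, where both of them lie, so it rests on those 2 mice. Inha had r of 0.423 and rho of 0.297 (adjusted p = 0.0323 and 0.126), and r was 0.181 without the 2 mice, 0.225 within cadmium and 0.6 within vehicle mice, so it rests on them too. Inhbb had r of -0.402 and rho of -0.379 (adjusted p = 0.039 and 0.0577), and r was -0.307 without the 2 mice, -0.212 within cadmium and -0.605 within vehicle mice. Lhcgr (r = 0.255), Amh (r = -0.242) and Cyp17a1 (r = -0.218) did not pass by r. Of these, Amh passed by rho (-0.434, adjusted permutation p = 0.0352). Among all windows, 12.2% had r of 0.5 or more and 17% had r of -0.5 or less, beside 3 and 2 of the 10 members. No share over all windows was computed for the permutation test itself. The imprinted-end level itself went with the share of coverage on mitochondrial DNA (r = 0.789), which was 0.0586% ± 0.0252 in cadmium and 0.0584% ± 0.0342 in vehicle mice. What the level stands for was not tested.

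Inside the genes, body clusters of Cyp11a1, Cyp19a1 and Nr5a1 went with the imprinted-end level in the direction of their windows. The part of CpGs outside clusters in the window relations was not tested. Of 21 clusters 7 passed an adjusted permutation p of 0.05 by r, 5 upwards and 2 downwards. At the Cyp11a1 cluster near the end of the gene r was -0.801 and rho -0.796 (adjusted p = 0.00021 and 0.000105), -0.779 without the 2 mice, -0.743 in cadmium and -0.863 in vehicle mice. Its other body cluster had r of -0.646 and rho of -0.736 (adjusted p = 0.00137 and 0.00021). The cluster at the Cyp11a1 start did not pass (r = -0.309, rho = -0.356, adjusted p = 0.181 and 0.0936). The intermediate Nr5a1 cluster had r of 0.701 and rho of 0.753 (adjusted p = 0.00063 and 0.000105), and the intermediate Cyp19a1 cluster r of 0.657 and rho of 0.619 (adjusted p = 0.00077 and 0.00263). The Lhcgr start cluster, whose window did not pass, had r of 0.599 and rho of 0.531 (adjusted p = 0.00256 and 0.0131), and 0.451 without the 2 mice. Its r was 0.393 within cadmium and 0.729 within vehicle mice. Both Amh clusters passed by r (0.617 and 0.444) and not by rho, and the one in Jsrp1 rests on the 2 mice, without which r was 0.135. The Inhbb cluster of 7 CpGs in capitals passed by rho only (r = -0.344, rho = -0.464, adjusted permutation p = 0.122 and 0.0312). So did the Inhbb cluster of 3 CpGs at chr1:119422646-119422661 (r = 0.379, rho = 0.478, adjusted permutation p = 0.0884 and 0.0277). The Inha cluster of 27 CpGs (r = -0.197) and the fully methylated Nr5a1 cluster (r = -0.015), the other 2 with an unadjusted p under 0.05 between treatments, did not pass. Of the 21 clusters, those with r of 0.5 or more were the Amh body, Lhcgr start and intermediate Nr5a1 and Cyp19a1 clusters. Those with r of -0.5 or less were the Cyp11a1 body clusters. Among all clusters 9.82% had r of 0.5 or more and 7.5% had r of -0.5 or less. These shares use another threshold than the permutation test, for which no share over all clusters was computed.

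**Figure D5:**
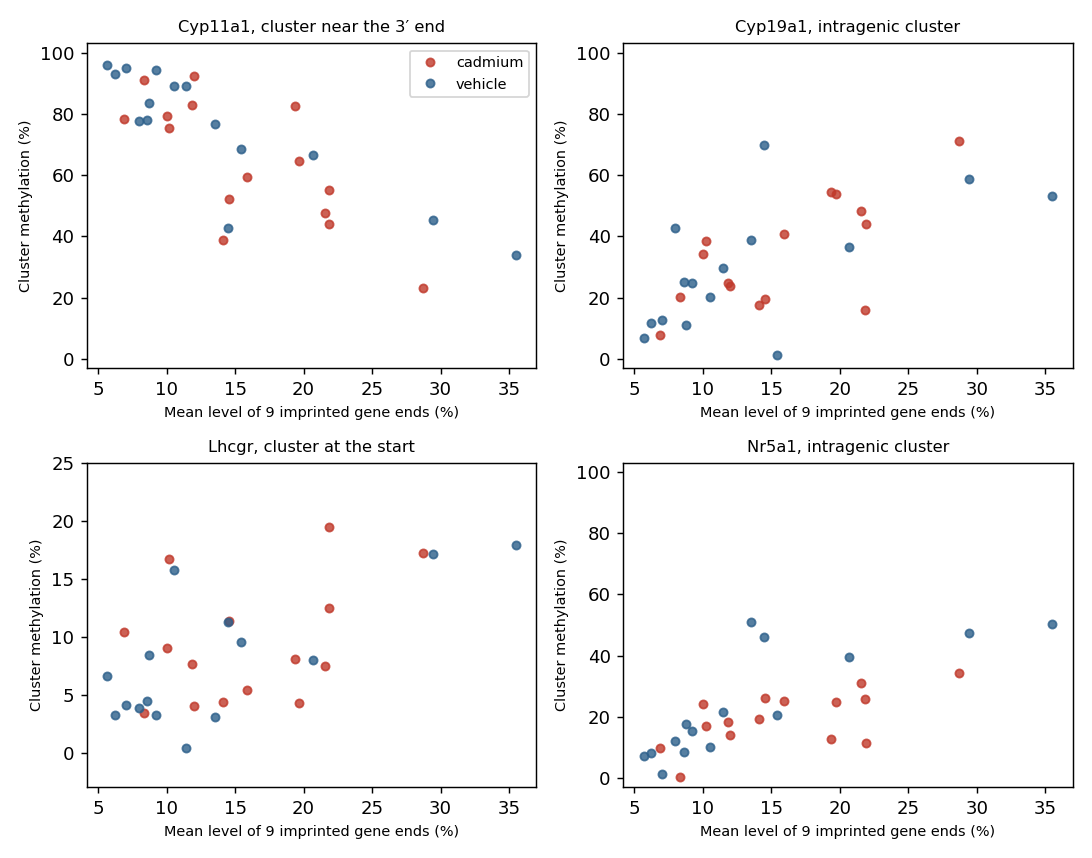
Cluster methylation (%, vertical axis) against the mean level of 9 imprinted gene ends (%, horizontal axis) for clusters of Cyp11a1 (4 CpGs), Cyp19a1 (4 CpGs), Lhcgr (9 CpGs, a narrower vertical scale) and Nr5a1 (5 CpGs); each point is a mouse, red for cadmium and blue for vehicle. Cyp11a1 runs down as the imprinted-end level goes up, to 23.1% in cadmium 13 and 34.0% in vehicle 13, the mouse with the highest level (35.5%); the other 3 run up, in both groups.

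Genes that tissues beside the sperm use were read the same way. Of 8 listed epididymal epithelium genes 6 were measured, with r to the imprinted-end level from -0.735 to -0.111. Among the 6, 3 had r of -0.5 or less and 0 had 0.5 or more, beside 17% and 12.2% of all windows. The mean level of the 6 genes was 28.1% ± 4.92 (21.9% to 35.3%) in cadmium and 27.7% ± 5.90 (19.3% to 36.5%) in vehicle mice. Of 5 listed leukocyte genes 4 were measured, with Ptprc at 0.534 and Spi1 at -0.813, and their mean level was 54.4% ± 4.18 (46.1% to 61.4%) and 54.1% ± 3.89 (48.9% to 61.1%). None of the 10 measured passed between the treatments or had an unadjusted p under 0.05 (limma). Their part in the relations above was not tested.

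In the wider pathway no gene passed between treatments either. Of 70 listed genes of steroid synthesis, gonadal hormones and their regulators, 54 had a measured window, and 0 passed the limma test. There were 2 at an unadjusted p under 0.05, among them Inhba. Inhba, the beta A subunit of inhibin A and activin A, read 0.760% ± 1.06 in cadmium and 2.14% ± 1.73 in vehicle mice (11 CpGs, p = 0.0135, adjusted p = 1). Inhbc, another activin subunit gene, did not reach it, at 70.3% ± 5.79 and 73.8% ± 3.75 (4 CpGs, p = 0.0542). In cadmium mice 25 of the 54 were higher and 29 lower, with a median difference of -0.0456 points.

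The levels of these genes are given by role. In vehicle mice 14 of the 18 measured regulators were under 20% methylated, against 8 of 20 hormone and receptor genes and 3 of 16 enzymes and cholesterol supply genes. Of all 54, 25 were under 20%, and their median was 20.9%, beside a median of 20.9% over all windows. The share of all windows under 20% was not computed. These levels depend on which CpGs RRBS reached in each gene, and a link with gene role was not tested. Among the lowest were Crem, a cyclic AMP-responsive factor (0.463% ± 0.378), and Fdx1, the ferredoxin that passes electrons to CYP11A1 (0.518% ± 0.528). The highest were Stard4, a cholesterol carrier (95.2% ± 4.84), Srd5a2, which makes dihydrotestosterone (93.4% ± 4.76), and Amhr2, the receptor of anti-Müllerian hormone (76.6% ± 26.5). With the imprinted-end level, 7 of the 54 had r of 0.5 or more and 10 had r of -0.5 or less, shares near the 12.2% and 17% of all windows.

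Fshr had the largest SD between mice of the 10 genes. Over 30 mice the windows most like its CpG by Spearman rho, among 24085 others, were Gm39353 (rho = 0.756, 10 CpGs), Gm52686 (rho = 0.75, 17 CpGs) and Arl14 (rho = 0.746, 3 CpGs). They were picked as the highest of many, so the values are a description.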

How the data were processed

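RRBS libraries of cauda sperm from 15 cadmium and 15 vehicle mice were analysed, 1 file per mouse. Per the file's own columns, the authors deposited for each cytosine and strand the methylated fraction and the count of covering reads. Per the submitters' processing notes, bcl2fastq, Trim Galore 0.5.0, Bismark 0.22.3, methylKit 1.12.0 were used, with builds named as GRCm38 and mm10 (roles: not given in the sources used here).

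Methylated reads were the deposited fraction times the count, rounded; in each library no more than 1 cytosine was over 0.1 from a whole number. Strands were summed per CpG on the autosomes and X. Neighbouring CpGs share reads and PCR duplicates were not removed here, so coverage exceeds the number of molecules. Levels are unweighted means over mice, and differences are cadmium minus vehicle in percentage points. CpGs and clusters were tested with a logistic model on reads, with an F test and a dispersion from Pearson residuals of at least 1 (numpy 2.4.6, scipy 1.17.1). A group with no methylated read adds nothing to these residuals while its mice are still counted, so the dispersion and p can be too small there. At the named Inhbb, Inha and Amh CpGs, each with such a group, limma gave an adjusted p of 0.838. Gene windows were tested with limma 3.58.1 in R 4.3.3 on the mean percent over CpGs, for coding and lncRNA genes. P values were adjusted by Benjamini-Hochberg over all CpGs, clusters or windows, with a threshold of 0.05. Relations used two-sided permutation tests with 100000 resamples. The scripts were tested on simulated data. The labels give 1 sample per mouse, and no 2 libraries were repeats of each other. Gene positions, and the strand where a promoter entry exists, are from RefSeq; exons and introns were not used here.

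The members, gene lists and tests were chosen with earlier results of these data known. For each member the cluster and the CpG with the smallest p are named, with clusters over 20 points from the others. In the pathway list the 3 smallest p and the 3 highest and lowest vehicle levels are named, and for the member with the largest SD the 3 windows most like it. Of the pathway genes so chosen, 2 are not reported here. Other clusters and CpGs named were chosen after their values were seen. Alternatives changed the coverage rule, window, cluster gap, model and mice.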

Additional observations from a re-analysis of the deposited data

How the results depend on the processing

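No member window passed under any alternative: over 10 or 11 alternatives each, the adjusted p stayed between 0.961 and 1. Over all windows the count of calls was 0 under all 11 alternatives. Over all single CpGs it was 7, and 2 at 20 reads, 1 with a minimum difference of 10 points, and 0 without the 3 mice over 25% at imprinted ends, with limma, with limma and the imprinted-end covariate, and with limma and the replicate block. Over all clusters it was 0, and 1 with CpGs read in at least 10 mice of each group, 3 without those 3 mice and 2 with gaps of up to 300 bp. With no dispersion term 187942 CpGs and 24094 clusters passed, since that model takes reads as independent and ignores the spread between mice. The cause of the other changes was not tested.

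The replicate numbers were not treated as pairs of mice in the main tests. Over 8133 windows the same-numbered pairs correlated from -0.296 to 0.756, 7 of 15 above 0.1, and 2 of 15 cadmium mice fitted their own number best. These correlations cannot exclude a pairing, since levels also differed between mice with the imprinted-end level. The replicate block changed no member's call.

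Differences that changed sign were all without a call. With CpGs read in at least 10 mice of each group they were 0.900 points at Cyp11a1, -2.14 at Lhcgr, 0.0697 at Inhbb, 1.41 at Amh and 0.0205 at the Jsrp1 cluster. On summed reads Lhcgr was -2.44 and Inha 0.0244. Inha was 1.26 with 1 kb either side, 4.24 in the body alone and 0.00849 without the 3 mice, where the Jsrp1 cluster was 0.597. Cyp19a1 was -0.336 with the imprinted-end covariate. At 20 reads the relation with the imprinted ends turned to r = -0.320 at Inha and 0.596 at Amh (adjusted permutation p = 0.00189), so the sign for these 2 windows depends on the CpGs kept. Against the mitochondrial share 7 of 10 relations passed by r, with Cyp17a1 (r = -0.433) in place of Inhbb (r = -0.268). At 20 reads 8 genes had a CpG and 5 relations passed: those of Cyp11a1, Cyp19a1, Nr5a1, Amh and Lhcgr (r = 0.581); Inhbb was at -0.0356.

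Depth limits single CpGs of low level: at a median of 67 to 77 reads, 1 methylated read at a single CpG moves a mouse by over 1 point.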

Other observations

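When a CpG needed 10 reads in only 10 mice per group, the 10 genes had 5 CpGs at Star, 23 at Cyp11a1, 12 at Cyp17a1, 29 at Cyp19a1, 30 at Lhcgr, 17 at Fshr, 89 at Inha, 153 at Inhbb, 35 at Amh and 75 at Nr5a1. The gonadotrophin receptor Fshr looked different at this coverage: its median CpG was 86.4% methylated in vehicle and 90.3% in cadmium mice, and 10 of its 17 CpGs were over 80%. Its 3 CpGs in the RefSeq promoter window (chr17:89200626-89200925) averaged 38.2% to 42.6% in 12 or 13 cadmium mice and 29.5% to 41.5% in 14 or 15 vehicle mice, with SDs of 31.3 to 43.2 points. At the Cyp19a1 body 21 of 29 CpGs were over 80%, and at Star all 5 were. At Inha 84 of 89 and at Inhbb 147 of 153 CpGs stayed under 20%.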
